A study of Mus musculus with 14 samples.

Results

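The transcripts of 10 genes of the adherens junction and the desmosome were followed in the colonic epithelium of mice with and without epithelial Smad4, on water and after DSS. They were Cdh1, Cdh17, Ctnna1, Ctnnb1 and Epcam of the lateral membrane, and Dsg2, Dsg3, Dsc2, Dsp and Jup of the desmosome, chosen by symbol and found as 10 rows among the 37680 genes counted. Of these, 9 had enough counts to be tested and 1, Dsg3, did not. RNA-seq was run on 14 libraries: WT on water (n = 4), Smad4 KO on water (n = 4), WT after 3 days of 2.5% DSS (n = 3) and Smad4 KO after 3 days of 2.5% DSS (n = 3). The Smad4 KO mice carried floxed Smad4 alleles and villin-CreERT2, a tamoxifen-inducible Cre recombinase driven by the villin promoter, which is active in intestinal epithelium, so cells outside the epithelium kept Smad4. Tamoxifen was given for 4 days, and the regimens the study draws show it for the Smad4 KO mice and not for the WT mice, so that tamoxifen and genotype cannot be told apart here. Mice were 8 to 14 weeks old, matched for age and sex, on a background enriched for C57BL/6. DSS, dextran sulfate sodium of 40 kD in the drinking water, is a polysaccharide that injures the colonic epithelium, and the water groups drank water alone. The epithelium of every group was released from the tissue with 5 mM EDTA, which takes up the calcium that cadherins need, so all values come from cells detached in the same way.

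Adherens junctions join neighbouring epithelial cells through cadherins, whose outer domains pair across the gap and whose tails bind β-catenin, while α-catenin ties that complex to actin. Desmosomes join the same cells through the desmosomal cadherins, the desmogleins and desmocollins, whose tails bind plakoglobin and plakophilins, and desmoplakin anchors these to keratin filaments. Simple epithelia such as that of the colon use desmoglein 2 and desmocollin 2, whereas desmoglein 3 belongs to stratified squamous epithelium. Smad4 carries signals of the TGF-β and BMP families to the nucleus, and the comparisons asked whether its loss, or early DSS injury, went with other levels of these junction transcripts.

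The deposited values were whole-number read counts per gene, from 12882827 to 26087231 per library. Levels are given as CPM, counts per 1000000 after TMM scaling, and between genes as CPM per kb of exon. Smad4 was at 118 to 159 CPM in WT on water and 170 to 182 CPM in WT after DSS. It was at 35.1 to 46.7 CPM in Smad4 KO water replicates 2 to 4 and 40.3 to 43.9 CPM in Smad4 KO after DSS, but at 158 CPM in the library labelled Smad4 KO water replicate 1. That library is kept under its label, and the fold changes of the 9 tested junction genes in the comparisons that use it are also given without it. Counts by unadjusted p or overlap, DESeq2 calls, marker ranges and ratios include that library. The legends of the paper give 3 replicates for Smad4 KO on water and do not say which. Mitochondrial genes held 30.6% and 32.8% of the counts in WT water replicates 3 and 4, 21.4% in Smad4 KO water replicate 4, and 4.05% to 8.23% in the other 11 libraries. The letters at the start of the library names differ between groups, and their meaning is not given in the sources used here. Of the 9 markers of colonic epithelium, none was at 0 and their summed level was 13934 to 24733 CPM per library, with Muc2, the goblet cell mucin, as the most counted. The nuclear factor Trp63 and the basal keratin Krt5, both of squamous epithelium, had 0 counts in all 14 libraries, where 3 counts is the level that a count of 0 still allows, and Krt14 had 6 to 55 counts per library.

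Of the 10 junction genes, promoter windows from RefSeq were kept for 4, Ctnnb1, Epcam, Dsp and Jup. No window was read for Cdh1, Cdh17, Ctnna1, Dsg2, Dsg3 and Dsc2, which does not show that RefSeq lacks a start site for them. Shown are the 250 bases before the start of the transcript most abundant per kb (Epcam) and of a pair of desmosome genes with unlike point estimates on water (Dsp and Jup). They are Epcam at chr17:87635729-87635978 (+ strand), Dsp at chr13:38151044-38151293 (+ strand) and Jup at chr11:100397791-100398040 (− strand), all in GRCm38.p6, written 5′ to 3′. Capitals mark the SMAD box CAGAC or its reverse complement GTCTG, and the E-box CAGGTG or its reverse complement CACCTG, searched on both strands. No match overlapped another.
Epcam: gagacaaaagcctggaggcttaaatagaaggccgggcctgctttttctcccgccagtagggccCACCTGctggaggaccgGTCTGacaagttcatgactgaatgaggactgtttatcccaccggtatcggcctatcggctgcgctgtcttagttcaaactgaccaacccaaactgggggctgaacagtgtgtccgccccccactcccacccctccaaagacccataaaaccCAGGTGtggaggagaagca
Dsp: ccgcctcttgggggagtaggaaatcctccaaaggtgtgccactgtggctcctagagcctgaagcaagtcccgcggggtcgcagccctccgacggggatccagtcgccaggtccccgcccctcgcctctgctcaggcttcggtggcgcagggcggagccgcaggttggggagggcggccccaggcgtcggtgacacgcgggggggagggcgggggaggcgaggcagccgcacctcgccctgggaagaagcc
Jup: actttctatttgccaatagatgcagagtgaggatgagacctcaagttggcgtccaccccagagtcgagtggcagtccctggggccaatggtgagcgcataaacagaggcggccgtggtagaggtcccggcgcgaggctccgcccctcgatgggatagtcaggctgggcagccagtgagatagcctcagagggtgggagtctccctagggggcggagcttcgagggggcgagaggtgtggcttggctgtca
The Epcam window held 1 SMAD box, its first base 170 bases before the start, and 2 E-boxes, 187 and 19 bases before it. The Dsp and Jup windows held neither motif. Of the Ctnnb1 windows, not shown, the one at chr9:120933150-120933399 held 1 SMAD box, 110 bases before the start. The one at chr9:120933328-120933577 held none, and neither held an E-box. The sequence at the start was found in a transcript of the GENCODE M1 annotation for Epcam but not for Dsp and Jup. The starts of Dsp and Jup were thus not matched to that annotation. Over 32851 promoter windows of this length, 42.2% held the SMAD box and 17.2% the E-box, so that each is common by its letters alone.

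Per kb of exon, Epcam, the homophilic adhesion molecule of simple epithelia, had the highest level of the 10, with a mean of 905 CPM per kb over the 14 libraries. Cdh1, which encodes E-cadherin, followed at 241 CPM per kb. The catenins Ctnnb1 (β-catenin) and Ctnna1 (α-catenin) were at 146 and 119 CPM per kb, and Cdh17, the liver-intestine cadherin that binds no catenin, was at 112 CPM per kb. The 4 expressed desmosome genes lay lower and close together, at 51.3 CPM per kb for Jup (plakoglobin), 50.0 for Dsp (desmoplakin), 46.5 for Dsc2 and 38.2 for Dsg2. Dsg3 was at 0.0538 CPM per kb. Length here is the union of all annotated exons, over 1 transcript for Epcam, 13 for Ctnnb1 and 9 for Jup. The order thus rests on the annotation too. Neighbours in this order did not all stand apart. Within WT on water, Ctnna1 had 101 ± 24.5 CPM per kb (SD, n = 4) and Cdh17 83.9 ± 19.7 CPM per kb (SD, n = 4), a difference smaller than their spread. After DSS in Smad4 KO, Jup with 50.2 ± 6.81, Dsp with 53.1 ± 6.65 and Dsc2 with 50.8 ± 2.39 CPM per kb (SD, n = 3) likewise lay within 1 SD of each other.

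**Figure D1:**
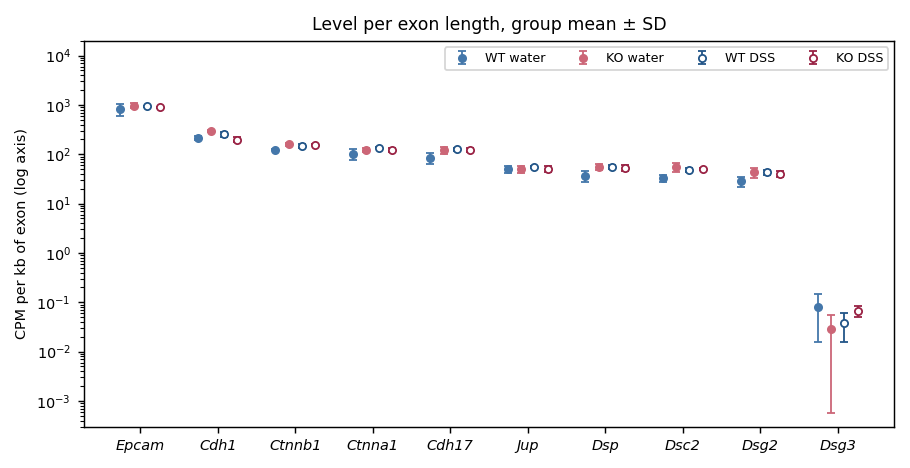
Mean level of the 10 genes in CPM per kb of exon (log axis) in the 4 groups, with bars for the SD over 4 libraries on water and 3 after DSS (a bar that would reach 0 is cut short). Epcam lies highest at a mean of 905 CPM per kb and Dsg3 lowest at 0.0538 CPM per kb, and the 4 expressed desmosome genes lie between 38.2 and 51.3 CPM per kb.

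Dsg3, on chromosome 18 of mm9 from 20668805 to 20705360 (ENSMUSG00000056632), had 62 counts over all 14 libraries together. The raw counts were 5, 8, 9 and 1 in WT on water, 2, 0, 7 and 2 in Smad4 KO on water, 3, 6 and 2 in WT after DSS, and 6, 7 and 4 in Smad4 KO after DSS. The groups overlapped, no library had 10 counts, and a difference between groups was not detectable at this depth. Of the 15 squamous markers 5 were at 0 in all libraries, Krt5 and Trp63 among them, while Serpinb5 had a mean of 81.2 CPM and Krt10, Sbsn, Krt15 and Krt14 had means of 1.04 to 3.13 CPM.

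On water, the junction transcripts were higher in Smad4 KO than in WT by their point estimates, but none passed the test over all genes. All 9 tested genes had a point estimate above 0, and the median of their log2 fold changes was 0.46, against -0.01 over the 15127 genes tested. With edgeR's quasi-likelihood test, 0 of the 9 had an adjusted p below 0.05, where 0.00661% of all genes tested did (1 gene). At an unadjusted p below 0.05 edgeR had 6 of the 9 (20.4% of all genes tested), and 3 of the 9 were higher in every Smad4 KO library than in any WT library (5.18% of all genes tested). DESeq2, run as an alternative, called 2 of the 9, Cdh1 and Dsc2, where it called 6.46% of the genes to which it gave an adjusted p (768 genes).

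Dsc2, the desmocollin of simple epithelia, on chromosome 18 of mm9 from 20189134 to 20218055 (ENSMUSG00000024331), had the largest point estimate of the 9 on water. Its levels were 179.7, 190.2, 180.5 and 131 CPM in WT and 231, 332, 363 and 247 CPM in Smad4 KO. The groups did not overlap, and the lowest Smad4 KO level was that of the library labelled replicate 1. The log2 fold change was 0.78 ± 0.19 (SE, the standard error of the fit, as for all fold changes, edgeR adjusted p = 0.16), and 0.89 without that library (edgeR adjusted p = 0.13). Across the 17 alternatives the value kept its direction and passed in 5, with adjusted p-values of 0.012 to 0.38, and 1 of these 5 left out Smad4 KO water replicate 4 (log2 fold change 0.86, edgeR adjusted p = 0.030).

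Cdh1, on chromosome 8 of mm9 from 109127251 to 109194146 (ENSMUSG00000000303), had 927, 1073, 1035 and 862 CPM in WT on water. In Smad4 KO on water it had 1255, 1317, 1433 and 1349.8 CPM. Every Smad4 KO library lay above every WT library, the one labelled replicate 1 with Smad4 at the WT level included. The log2 fold change was 0.46 ± 0.17 (SE, edgeR adjusted p = 0.19), and 0.49 without the library labelled replicate 1 (edgeR adjusted p = 0.24). DESeq2 gave the same size with an adjusted p of 0.032, the only one of the 17 alternatives in which Cdh1 passed.

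Ctnnb1, on chromosome 9 of mm9 from 120838334 to 120869625 (ENSMUSG00000006932), encodes the catenin that binds the E-cadherin tail and also acts in Wnt signalling. It had 609.8, 637, 628 and 645 CPM in WT and 740.5, 806, 861 and 832 CPM in Smad4 KO on water, without overlap. WT on water was narrow for this gene (630.2 ± 15.3 CPM, SD, n = 4), and the log2 fold change was 0.36 ± 0.16 (SE, edgeR adjusted p = 0.22). Ctnna1, on chromosome 18 from 35278542 to 35414427 (ENSMUSG00000037815), had 372, 490.2, 357 and 270.1 CPM in WT and 503, 416, 475 and 422 CPM in Smad4 KO, so that WT replicate 2 lay within the Smad4 KO range. Its log2 fold change was 0.29 ± 0.20 (SE, edgeR adjusted p = 0.42).

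Dsp, which links the desmosome to keratin filaments, on chromosome 13 of mm9 from 38243197 to 38290446 (ENSMUSG00000054889), had 332, 451, 399.8 and 245 CPM in WT on water. In Smad4 KO on water it had 559, 541, 617 and 442 CPM. Only Smad4 KO replicate 4, at 442 CPM, lay below the highest WT library, and the log2 fold change was 0.60 ± 0.21 (SE, edgeR adjusted p = 0.17). Dsg2, the desmoglein of simple epithelia, on chromosome 18 from 20716575 to 20763022 (ENSMUSG00000044393), had 222, 292, 262 and 165 CPM in WT and 332, 344.5, 476 and 266 CPM in Smad4 KO. Its groups overlapped at Smad4 KO replicate 4, and the log2 fold change was 0.59 ± 0.22 (SE, edgeR adjusted p = 0.19).

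Cdh17, on chromosome 4 of mm9 from 11685294 to 11745042 (ENSMUSG00000028217), had 403, 458, 391 and 251 CPM in WT and 513, 552, 667 and 433 CPM in Smad4 KO on water. The groups overlapped at Smad4 KO replicate 4 and WT replicate 2, and the log2 fold change was 0.53 ± 0.21 (SE, edgeR adjusted p = 0.20). Epcam, on chromosome 17 from 88035319 to 88050446 (ENSMUSG00000045394), ran from 1218 to 2249 CPM in WT and from 1706 to 2250.0 CPM in Smad4 KO, with a log2 fold change of 0.22 ± 0.23 (SE, edgeR adjusted p = 0.62). Jup, whose product plakoglobin binds desmosomal cadherins and E-cadherin, on chromosome 11 from 100230272 to 100259077 (ENSMUSG00000001552), had 306, 399, 293 and 290.3 CPM in WT and 333, 244, 351 and 369 CPM in Smad4 KO. Its log2 fold change was 0.01, with an unadjusted 95% interval of -0.39 to 0.41 (edgeR adjusted p = 0.98).

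With Smad4 KO water replicate 1 left out, the median log2 fold change of the 9 genes on water was 0.49, all 9 were above 0, and 0 passed with edgeR. Beside Dsc2 and Cdh1 above, the values were 0.63 for Dsg2, 0.59 for Dsp, 0.56 for Cdh17, 0.41 for Ctnnb1, 0.24 for Ctnna1, 0.22 for Epcam and 0.00 for Jup. Single WT libraries moved 3 of the smaller values further. Ctnna1 was at 0.46 without WT replicate 2 and at 0.16 without WT replicate 4, Epcam at 0.40 and 0.09, and Jup at 0.14 and -0.04. The direction of Jup turned without any of WT replicates 1, 3 and 4 and Smad4 KO replicates 3 and 4.

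**Figure D2:**
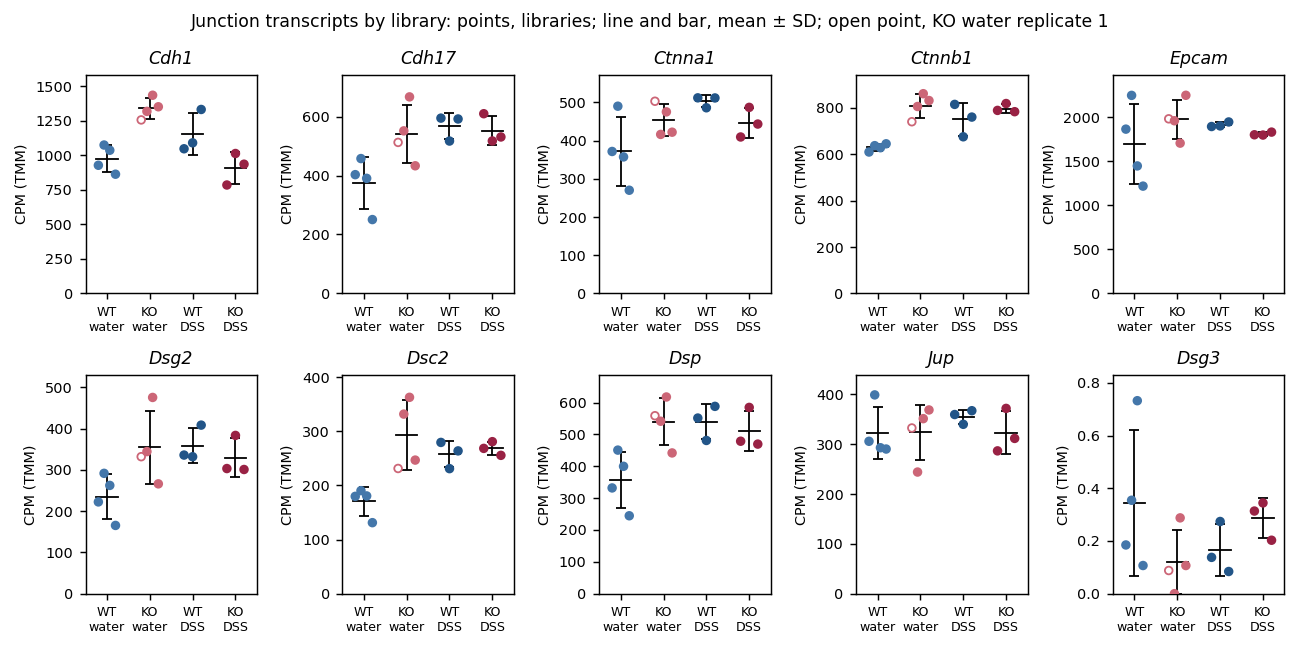
CPM (TMM) of the 10 genes in each library, by group, with the mean and SD (4 libraries on water, 3 after DSS). The open point is the library labelled Smad4 KO water replicate 1. On water, Cdh1, Ctnnb1 and Dsc2 do not overlap between genotypes, and after DSS Cdh1 lies at 784 to 1012 CPM in Smad4 KO and 1046 to 1330.3 CPM in WT. Dsg3 lies below 1 CPM throughout.

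The same WT water libraries were at the top and at the bottom of their group for most of the genes. WT replicate 2 was the highest of its group for 8 of the 9 tested genes, and WT replicate 4 the lowest for 8 of the 9, Ctnnb1 being the one for which it was the highest. WT replicate 4 also had the largest mitochondrial share (32.8%). Without the 3 libraries with a mitochondrial share above 20%, a choice made after the values were seen, the median log2 fold change of the 9 genes on water was 0.42, 7 were higher in Smad4 KO, and Epcam (-0.12) and Jup (-0.19) were lower. Under that choice Dsc2 had a log2 fold change of 0.74 (edgeR adjusted p = 0.12), Cdh1 0.42 (edgeR adjusted p = 0.25) and Dsp 0.55 (edgeR adjusted p = 0.17). With the mitochondrial share as a covariate, Dsc2 had 0.67 (edgeR adjusted p = 0.29) and Cdh17 had 0.34 (edgeR adjusted p = 0.44) in place of 0.53. The summed levels of the marker lists overlapped between the genotypes on water, with 2.69 to 7.91 CPM in WT and 2.98 to 30.5 CPM in Smad4 KO for fibroblast and smooth muscle, 57.0 to 86.9 and 80.0 to 96.4 CPM for squamous epithelium, 7.89 to 22.6 and 17.9 to 28.6 CPM for leukocytes, and 4.79 to 10.6 and 3.40 to 5.98 CPM for endothelium. The summed level of the epithelial markers was 13934 to 24733 CPM in WT and 15313 to 20128 CPM in Smad4 KO. Some single markers behind these sums did not overlap, though none passed with edgeR. The fibroblast genes Dcn, at 0.444 to 0.651 CPM in WT and 1.07 to 11.5 CPM in Smad4 KO (edgeR adjusted p = 0.15), and Col1a2, at 0.133 to 0.259 and 0.834 to 5.13 CPM (edgeR adjusted p = 0.15), were higher in every Smad4 KO library. The stem cell marker Lgr5, at 7.67 to 13.4 CPM in WT and 16.2 to 22.1 CPM in Smad4 KO, had a log2 fold change of 0.92 ± 0.22 (SE, edgeR adjusted p = 0.15). Car1, a carbonic anhydrase of differentiated colonocytes, at 1169 to 2698 and 812 to 1167 CPM, had -0.98 ± 0.26 (SE, edgeR adjusted p = 0.16). Of the same epithelial list, Krt20 (-0.44, edgeR adjusted p = 0.23) and Slc26a3 (0.07, edgeR adjusted p = 0.87) overlapped. Sbsn of the squamous list, at 1.24 to 4.60 and 0.0596 to 1.19 CPM, was lower in every Smad4 KO library (edgeR adjusted p = 0.18). DESeq2 called Dcn, Lgr5 and Car1 of all these markers. Their part in the junction values was not tested. In bulk epithelium, fewer cells of a type and less RNA per cell cannot be told apart.

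**Figure D3:**
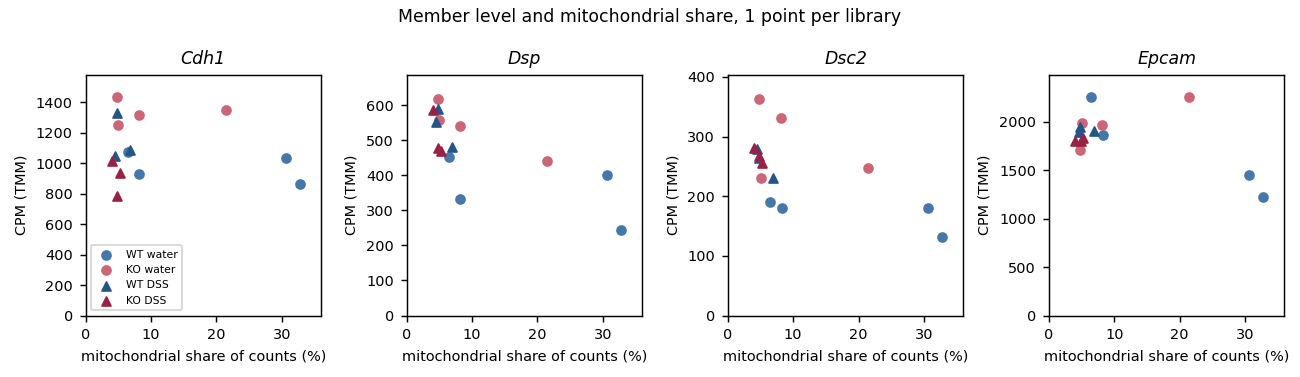
CPM (TMM) of Cdh1, Dsp, Dsc2 and Epcam against the share of counts on mitochondrial genes (%), 1 point per library, circles for water and triangles for DSS. The 3 libraries above 20% are WT water replicates 3 and 4 and Smad4 KO water replicate 4. Dsp is lowest, at 245 CPM, in the library with the largest share, 32.8%, while Cdh1 in Smad4 KO water replicate 4, at 21.4%, stays at 1349.8 CPM.

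After DSS, Cdh1 was lower in Smad4 KO than in WT by its point estimate and most of the others lay near 0. Of the 9 tested genes, 2 were higher and 7 lower in Smad4 KO by their point estimates, with a median log2 fold change of -0.08, against 0.00 over all genes tested. With edgeR, 0 of the 9 passed, where 0.747% of all genes tested did (113 genes, 50 higher and 63 lower). At an unadjusted p below 0.05 edgeR had 1 of the 9 (15.4% of all genes tested), DESeq2 called 0 of the 9 (3.5% of its genes), and Cdh1 and Epcam were lower in every Smad4 KO library than in any WT library (11.4% of all genes tested).

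Cdh1 had 1046, 1089 and 1330.3 CPM in WT and 784, 1012 and 935 CPM in Smad4 KO after DSS. The groups were separate, with Smad4 KO replicate 2 closest to WT replicate 1. The log2 fold change was -0.34 ± 0.13 (SE, unadjusted 95% interval -0.64 to -0.04, edgeR adjusted p = 0.27). It was -0.23 without WT replicate 3 (edgeR adjusted p = 0.55), and also -0.23 with the letters of the library names as a block (edgeR adjusted p = 0.54), where WT replicate 3, the highest of the 6 libraries, has no library of its letters to be compared with. The adjusted p ran from 0.15 to 1.00 over the 15 alternatives, and all 15 kept the direction.

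Epcam was also separate after DSS, with 1895, 1902 and 1947 CPM in WT and 1801, 1798 and 1832 CPM in Smad4 KO. The libraries of each group lay close together, and the log2 fold change was -0.08 ± 0.09 (SE, edgeR adjusted p = 0.73). For the other 7 genes the groups overlapped, and the log2 fold changes ran from -0.17 for Ctnna1 to 0.09 for Ctnnb1. For Dsc2 the unadjusted 95% interval of the difference after DSS was -0.17 to 0.29, and for Dsp it was -0.35 to 0.20. A missed threshold does not show that these genes were alike in both genotypes.

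Markers of other cells moved with genotype after DSS. The summed level of 9 fibroblast and smooth muscle markers was 9.74 to 15.3 CPM in Smad4 KO and 3.08 to 4.42 CPM in WT, none of them was at 0 in all libraries, and Col1a1, Col1a2 and Col3a1 passed the test as higher. The smooth muscle genes of that list did not move together. Des was at 0.246 to 0.406 CPM in Smad4 KO and 0.758 to 1.06 CPM in WT, lower without overlap (log2 fold change -1.55, edgeR adjusted p = 0.14), Acta2 overlapped (0.16, edgeR adjusted p = 0.86), and Myh11 had 3 to 8 counts per library in Smad4 KO and 1 in each WT library. Lgr5 was at 11.9 to 12.9 CPM in Smad4 KO and 2.56 to 6.10 CPM in WT, with a log2 fold change of 1.35 ± 0.28 (SE, edgeR adjusted p = 0.069), and DESeq2 called it. Krt20, a keratin of differentiated surface colonocytes, was lower in Smad4 KO (log2 fold change -0.85 ± 0.14 SE, edgeR adjusted p = 0.032). Cdx2 of the epithelial list was lower without overlap (-0.35, edgeR adjusted p = 0.27). The rest of that list overlapped, Car1 (-0.11, edgeR adjusted p = 0.86) and Slc26a3 (-0.04, edgeR adjusted p = 0.95) included. The summed level of 8 leukocyte markers overlapped (19.6 to 21.3 CPM in Smad4 KO and 17.7 to 24.998 CPM in WT), as did that of 5 endothelial markers (4.91 to 5.68 CPM and 4.50 to 6.35 CPM). Behind these sums Cd3g was higher (0.67, edgeR adjusted p = 0.33) and Pecam1 lower (-1.07, edgeR adjusted p = 0.31) in Smad4 KO without overlap. Pecam1 had 4 to 18 counts per library, and the other leukocyte and endothelial markers overlapped. The summed level of 15 squamous markers overlapped too (94.5 to 135 CPM and 82.0 to 99.4 CPM), of which 5 were at 0 in all libraries and Serpinb5 had the most counts. Their part in the junction values was not tested.

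In WT, the point estimates after DSS were above those on water for all 9 tested genes, and their median was 0.43 on the log2 scale, against -0.01 over all genes tested. With edgeR, 0 of the 9 passed, and 0% of all genes tested did. At an unadjusted p below 0.05 edgeR had 5 of the 9 (24.2% of all genes tested), and 5 were higher in every DSS library than in any water library (12.8% of all genes tested). DESeq2 called 4 of the 9, Cdh17, Dsg2, Dsc2 and Dsp (13.6% of its genes, 1777 in all).

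The 3 desmosome genes Dsc2, Dsg2 and Dsp were among those that did not overlap. Dsc2 had 279, 231 and 264 CPM after DSS, above the highest WT water library at 190.2 CPM, with a log2 fold change of 0.60 ± 0.15 (SE, edgeR adjusted p = 0.091). Dsg2 had 336, 332 and 409 CPM after DSS, above 292 CPM on water, with a log2 fold change of 0.61 ± 0.19 (SE, edgeR adjusted p = 0.11). Dsp had 551, 481 and 588 CPM after DSS, above 451 CPM on water, with a log2 fold change of 0.60 ± 0.20 (SE, edgeR adjusted p = 0.12). In each of the 3 the highest WT water library was replicate 2 and the lowest was replicate 4.

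Cdh17 lay at 595, 517 and 592 CPM after DSS, above the highest WT water library at 458 CPM (log2 fold change 0.60 ± 0.19 SE, edgeR adjusted p = 0.12). Ctnnb1 lay at 815, 676 and 761 CPM after DSS, above 645 CPM on water (log2 fold change 0.25 ± 0.13 SE, edgeR adjusted p = 0.27). Cdh1 itself overlapped between WT on water and after DSS, with a log2 fold change of 0.25 ± 0.16 (SE, edgeR adjusted p = 0.36). Ctnna1 had a log2 fold change of 0.43 (edgeR adjusted p = 0.19), Epcam of 0.18 (edgeR adjusted p = 0.65) and Jup of 0.14 (edgeR adjusted p = 0.58), all with overlap. Cdh1 was at 0.13 without WT DSS replicate 3, its highest library after DSS. Epcam was at 0.35 without WT water replicate 2, 0.11 without replicate 3 and 0.05 without replicate 4, and Jup at 0.27 without WT water replicate 2.

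The size of the WT differences moved with the libraries compared. Between the 2 water and 2 DSS libraries of WT whose names start with the letter D, a choice made after the values were seen, the median log2 fold change of the 9 genes was 0.26, 7 were higher, and Epcam (-0.11) and Jup (-0.01) were lower. Dsc2 then had 0.46 (edgeR adjusted p = 0.24), Dsp 0.40 (edgeR adjusted p = 0.37) and Cdh1 0.10 (edgeR adjusted p = 0.80). Without WT water replicates 3 and 4, the libraries with a high mitochondrial share, the median was 0.27 and 8 were higher, with Epcam at -0.10. With the mitochondrial share as a covariate Dsp had 0.36 (edgeR adjusted p = 0.66) in place of 0.60.

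Markers of the epithelium and of other cells also differed between WT on water and after DSS, though none passed with edgeR. Lgr5 was at 7.67 to 13.4 CPM on water and 2.56 to 6.10 CPM after DSS (log2 fold change -1.11 ± 0.33 SE, edgeR adjusted p = 0.10), and Vil1, villin of the brush border, at 564 to 719.7 and 794 to 912 CPM (0.37 ± 0.14 SE, edgeR adjusted p = 0.17). DESeq2 called both, and Sbsn, at 1.24 to 4.60 and 0.731 to 0.873 CPM. Of the 9 epithelial markers 4 were higher and 5 lower after DSS by their point estimates. Apart from Lgr5 and Vil1 that list overlapped, Car1 (-0.47, edgeR adjusted p = 0.34), Muc2 (-0.26, edgeR adjusted p = 0.70) and Krt20 (0.13, edgeR adjusted p = 0.68) included. Krt14 of the squamous list was, like Sbsn, lower without overlap (-1.32, edgeR adjusted p = 0.18). Myh11, a smooth muscle myosin, had 4 to 16 counts per library on water and 1 in each library after DSS. The summed levels overlapped for all 5 marker lists, with 17843 to 21191 CPM after DSS for the epithelium and 3.08 to 4.42 CPM for fibroblast and smooth muscle. Their part in the junction values was not tested.

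In Smad4 KO, Cdh1 was lower after DSS than on water by its point estimate, and those of the other 8 tested genes lay close to 0. The median log2 fold change of the 9 was -0.07, with 1 higher and 8 lower, against -0.02 over all genes tested. With edgeR, 0 of the 9 passed, where 0.00661% of all genes tested did (1 gene), and DESeq2 called 0 of the 9 (0.47% of its genes). Cdh1 alone was at an unadjusted p below 0.05 (6.37% of all genes tested) and alone was lower in every DSS library than in any water library (4.28% of all genes tested).

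The Cdh1 levels of 784, 1012 and 935 CPM after DSS lay under all 4 Smad4 KO water libraries, whose lowest was the library labelled replicate 1 at 1255 CPM. The log2 fold change was -0.55 ± 0.16 (SE, unadjusted 95% interval -0.91 to -0.20, edgeR adjusted p = 0.66), and -0.58 without the library labelled replicate 1 (edgeR adjusted p = 0.70). DESeq2 gave an adjusted p of 0.051, the lowest of the 15 alternatives, all of which kept the direction. All 3 Smad4 KO libraries after DSS have names that start with the letter D and none of the 4 on water does, so that DSS and whatever these letters stand for cannot be told apart in this comparison. Of the 9 epithelial markers 4 were higher and 5 lower after DSS by their point estimates. Lgr5 was at 16.2 to 22.1 CPM on water and 11.9 to 12.9 CPM after DSS (log2 fold change -0.68 ± 0.18 SE, edgeR adjusted p = 0.56). Vil1 was at 643 to 708 and 801 to 896 CPM (0.36 ± 0.15 SE, edgeR adjusted p = 0.76), and Krt8 was also higher without overlap (0.49, edgeR adjusted p = 0.74). The rest of the list overlapped, Krt20 (-0.28, edgeR adjusted p = 0.83), Muc2 (-0.27, edgeR adjusted p = 0.84) and Car1 (0.40, edgeR adjusted p = 0.78) included. The part of these markers in the Cdh1 values was not tested.

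Dsc2, at 268, 281 and 255.5 CPM after DSS, lay inside its Smad4 KO water range of 231 to 363 CPM, with a log2 fold change of -0.12 and an unadjusted 95% interval of -0.53 to 0.28 (edgeR adjusted p = 0.94). Without the library labelled replicate 1, Dsc2 was at -0.22. Dsp was at 479, 585 and 469.5 CPM after DSS and Dsg2 at 303, 384 and 301 CPM, both inside their ranges on water. The other tested genes ran from -0.12 for Epcam to 0.04 for Cdh17. Without the library labelled replicate 1, the median of the 9 was -0.06, with 3 higher and 6 lower, and apart from Cdh1 and Dsc2 the values ran from -0.13 for Dsg2 to 0.03 for Ctnna1.

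**Figure D4:**
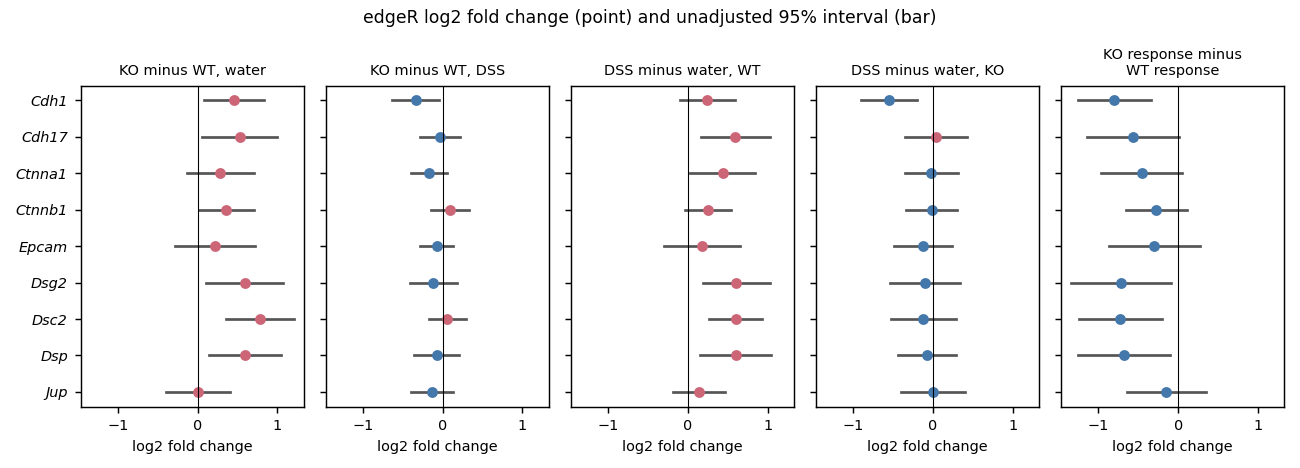
Log2 fold change of the 9 tested genes (points, red above 0 and blue below) with unadjusted 95% intervals (bars) from edgeR in the 5 comparisons. On water all 9 points are above 0, from 0.01 for Jup to 0.78 for Dsc2, and in the difference of the DSS responses all 9 are below 0, from -0.15 for Jup to -0.80 for Cdh1. No gene passed an adjusted p of 0.05 in any panel.

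Whether the DSS response differed between genotypes was tested as an interaction in 1 model of the 14 libraries. The difference, Smad4 KO response minus WT response, was below 0 for all 9 tested genes, with a median of -0.57 on the log2 scale, against -0.01 over all genes tested. With edgeR, 0 of the 9 passed, where 0.00661% of all genes tested did (1 gene). At an unadjusted p below 0.05 edgeR had 4 of the 9, Cdh1, Dsg2, Dsc2 and Dsp (7.5% of all genes tested), and DESeq2 called 0 of the 9 (0.0529% of its genes). All 4 groups enter this contrast, so that it draws on the same water libraries as the comparisons above.

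For Cdh1 the difference of the responses was -0.80 ± 0.22 (SE, unadjusted 95% interval -1.26 to -0.35, edgeR adjusted p = 0.64), from a log2 fold change with DSS of 0.25 in WT and -0.55 in Smad4 KO. It was -0.76 without the 3 libraries with a mitochondrial share above 20% (edgeR adjusted p = 0.16) and -0.68 with the name letters as a block (edgeR adjusted p = 0.23). DESeq2 gave an adjusted p of 0.078, the lowest of the 22 alternatives. For Dsc2 it was -0.73 ± 0.25 (SE), for Dsg2 -0.71 ± 0.29 (SE) and for Dsp -0.68 ± 0.27 (SE), each with an edgeR adjusted p of 0.64. For Cdh17, at -0.57 (unadjusted 95% interval -1.14 to 0.01), and Ctnna1, at -0.46 (-0.97 to 0.05), the interval held 0. With Smad4 KO water replicate 1 left out, the difference was -0.83 for Cdh1, -0.82 for Dsc2, -0.74 for Dsg2, -0.66 for Dsp, -0.59 for Cdh17, -0.41 for Ctnna1, -0.32 for Ctnnb1, -0.30 for Epcam and -0.13 for Jup, with a median of -0.59. Jup had the smallest difference in the model of 14 libraries, -0.15 ± 0.23 (SE, edgeR adjusted p = 0.87), and without the 3 libraries of high mitochondrial share Jup (0.05) and Epcam (0.05) were above 0. With single libraries left out, Jup ran from -0.27 (WT water replicate 2) to -0.07 (Smad4 KO DSS replicate 1) and Epcam from -0.47 (WT water replicate 2) to -0.16 (WT water replicate 4).

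Ratios of a pair of transcripts within a library do not depend on its scaling, and they were taken from counts per kb as a description, with no test. Cdh1 to Ctnnb1, the cadherin over the catenin that binds its tail, was 1.49 to 1.88 in WT on water, 1.81 to 1.89 in Smad4 KO on water and 1.43 to 1.95 in WT after DSS. In Smad4 KO after DSS it was 1.11 to 1.38, below every library of the other 3 groups. Ctnna1 to Ctnnb1 was likewise lower in Smad4 KO (0.715 to 0.820) than in WT (0.866 to 0.992) after DSS, without overlap. Its Smad4 KO range after DSS overlapped those of WT (0.577 to 1.06) and Smad4 KO (0.700 to 0.937) on water. Cdh17 to Cdh1 was 0.297 to 0.445 in WT and 0.328 to 0.476 in Smad4 KO on water, and 0.455 to 0.582 in WT and 0.523 to 0.796 in Smad4 KO after DSS. The highest ratio, 0.796, came from Smad4 KO replicate 1 after DSS, which had the lowest Cdh1 level of all libraries.

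Within the desmosome, the ratio of Dsc2 to Jup set WT on water apart, and those of Dsg2 and Dsp to Jup overlapped between the genotypes on water. Dsc2 to Jup was 0.551 to 0.752 in WT on water, 0.816 to 1.66 in Smad4 KO on water, 0.828 to 0.948 in WT after DSS and 0.921 to 1.14 in Smad4 KO after DSS, so that WT on water lay below every other library. Dsp to Jup was 0.563 to 0.913 in WT on water and 0.801 to 1.48 in Smad4 KO on water, with overlap at Smad4 KO replicate 4, and 0.946 to 1.07 and 1.01 to 1.12 after DSS. Dsg2 to Jup was 0.444 to 0.698 in WT and 0.562 to 1.10 in Smad4 KO on water, and 0.727 to 0.866 and 0.752 to 0.824 after DSS. Between the cadherins of the desmosome, Dsc2 to Dsg2 stayed at 1.01 to 1.51 over all 14 libraries and overlapped between all 4 groups.

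**Figure D5:**
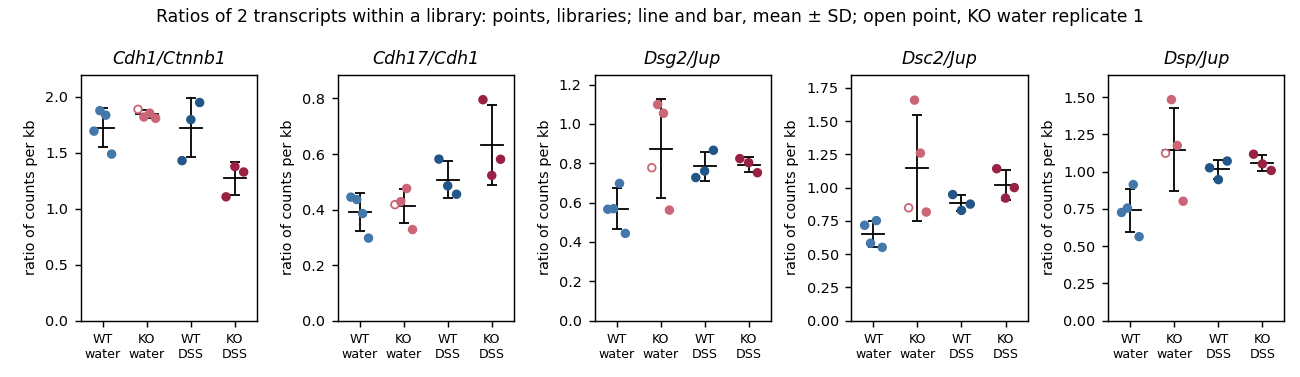
Ratios of counts per kb for 5 pairs of transcripts within each library, by group, with the mean and SD (4 libraries on water, 3 after DSS). The open point is the library labelled Smad4 KO water replicate 1. Cdh1 to Ctnnb1 is lowest in Smad4 KO after DSS (1.11 to 1.38), and Dsc2 to Jup is lowest in WT on water (0.551 to 0.752).

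Other genes of the same structures were read from lists written down beside the members. Of 19 further adherens junction genes, 14 were tested and 0 passed with edgeR in any of the 5 comparisons. At an unadjusted p below 0.05 edgeR had 3 of the 14 between genotypes on water (20.4% of all genes tested), 2 after DSS (15.4%), 5 with DSS in WT (24.2%), 1 with DSS in Smad4 KO (6.37%) and 2 in the interaction (7.5%). Their median log2 fold change was 0.05 between genotypes on water and -0.08 after DSS, and with DSS it was 0.14 in WT and -0.01 in Smad4 KO. DESeq2 called 3, Vcl, Ctnnd1 and Plekha7, with DSS in WT, where it called 13.6% of its genes, and 0 elsewhere. The most abundant per kb was Ctnnd1, p120-catenin, which binds and holds E-cadherin at the membrane, at 51.6 CPM per kb. It had 290.0, 355, 289 and 159 CPM in WT and 382, 409, 514 and 327 CPM in Smad4 KO on water, with overlap, and a log2 fold change of 0.58 ± 0.24 (SE, edgeR adjusted p = 0.21). With DSS in WT it had a log2 fold change of 0.69 ± 0.23 (SE, edgeR adjusted p = 0.12), without overlap.

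Vcl, vinculin, which couples α-catenin to actin, had the largest point estimate with DSS in WT of the list, and was named after its values were seen. It had 12.7, 17.1, 17.2 and 4.17 CPM in WT on water and 48.1, 26.4 and 45.1 CPM in WT after DSS. The groups did not overlap, and the log2 fold change was 1.62 ± 0.39 (SE, edgeR adjusted p = 0.088). In Smad4 KO on water it had 36.1, 32.3, 47.2 and 8.71 CPM, with overlap with WT at replicate 4 alone (log2 fold change 1.27 ± 0.48 SE, edgeR adjusted p = 0.19), and after DSS 41.2, 53.8 and 39.2 CPM. In each water group the library with the largest mitochondrial share was the lowest.

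Of 12 further desmosome genes, 6 were tested and 0 passed with edgeR in any of the 5 comparisons. By unadjusted p below 0.05, edgeR had 1 of the 6 between genotypes on water (20.4% of all genes tested) and 2 after DSS (15.4%). With DSS it had 1 in WT (24.2%) and 1 in Smad4 KO (6.37%), and it had 0 in the interaction (7.5%). DESeq2 called 1, Evpl, between genotypes after DSS (3.5% of its genes). The most abundant per kb was Perp, a small membrane protein of desmosomes, at 134 CPM per kb, with a log2 fold change on water of 0.34 ± 0.20 (SE, edgeR adjusted p = 0.35) and after DSS between genotypes of 0.10 (edgeR adjusted p = 0.68). Evpl, envoplakin, a plakin that binds keratin filaments, was named after its values were seen. It had 80.0, 103 and 94.9 CPM in WT and 53.7, 71.7 and 58.2 CPM in Smad4 KO after DSS, without overlap, and a log2 fold change of -0.59 ± 0.13 (SE, edgeR adjusted p = 0.092), and on water -0.59 ± 0.20 (SE, edgeR adjusted p = 0.17). On water its point estimate thus had the opposite sign to that of Dsp, the plakin among the members. Of the 6 not tested, Dsg1a, Dsg1b and Dsc1, cadherins of stratified epithelium, had 0 counts in all libraries, and Dsg1c, Dsg4 and Dsc3 had at most 10 counts in any library. The desmosomal cadherins counted at a level that could be tested were thus Dsg2 and Dsc2.

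Of 5 genes linked to Epcam, its paralog and the proteases and inhibitors around it, 4 were tested and 0 passed with edgeR or DESeq2 in any comparison. By unadjusted p below 0.05, edgeR had 1 of the 4 between genotypes after DSS (15.4% of all genes tested) and 0 in the other comparisons. The most abundant was Spint2, a serine protease inhibitor of the epithelial surface, at 1008 CPM per kb, with a log2 fold change on water of -0.18 ± 0.27 (SE, edgeR adjusted p = 0.74). Of 11 transcription factors and splicing regulators known to act on Cdh1 or on epithelial identity, 6 were tested and 0 passed with edgeR. By unadjusted p below 0.05, edgeR had 1 of the 6 between genotypes on water (20.4% of all genes tested) and 0 after DSS (15.4%). With DSS it had 2 in WT (24.2%) and 2 in Smad4 KO (6.37%), and it had 1 in the interaction (7.5%). DESeq2 called 1, Ovol1, with DSS in WT (13.6% of its genes). These 6 had median log2 fold changes of -0.01 on water and 0.06 between genotypes after DSS. The most abundant of these was Elf3, an epithelial ETS factor, at 266 CPM per kb, with a log2 fold change of 0.00 on water (SE 0.21, edgeR adjusted p = 0.99) and -0.06 between genotypes after DSS (SE 0.11, edgeR adjusted p = 0.83). The Cdh1 repressors Snai1, Snai2, Zeb1, Zeb2 and Twist1 had at most 7 counts in any library, under the filter, and were not tested.

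Among tested genes outside the members, Elovl7, Fam23a and Ctr9 had the pattern over the 14 libraries most like that of Cdh1. Their root mean square differences from it were 0.448, 0.510 and 0.517 between values scaled to mean 0 and SD 1. The median over the genes searched was 1.37. Other junction members were not in this search. For Dsg3 the closest were Gm16137, Ell3 and Gm10644, at 0.576, 0.578 and 0.607 (median over the genes searched 1.36), where 0 to 9 counts per library leave a large counting error.

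Some of the genes share their place with a gene on the other strand in GENCODE M1, and whether the counting used strand is not given in the sources used here. Ctnna1 overlaps Lrrtm2, with 39 counts over all libraries, Ctnnb1 overlaps Ulk4 with 267 counts and 4930593C16Rik with 0, Dsg2 overlaps Gm16090 with 235 counts, and Dsp overlaps Gm10129 with 0. The counts of the partners were small beside the 126344 counts of Ctnna1, 209335 of Ctnnb1, 91090 of Dsg2 and 138208 of Dsp, though reads from an overlap cannot be told apart without strand.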

How the data were processed

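RNA-seq was from isolated colonic epithelium, poly(A)-selected and sequenced as 150-bp paired ends. The authors aligned reads to mm9 with Hisat2 2.0.5, counted them per gene with featureCounts 1.5.0-p3 and deposited the raw counts of 37680 genes, 14001 of them 0 throughout. Groups follow the deposited labels. Genes that reached 10 counts in 3 or more of the 14 libraries (15127) were tested in edgeR 4.0.16 (TMM, quasi-likelihood test, R 4.3.3), fitted on the 2 groups compared, as the study tested pairs, and on all 14 libraries for the interaction, with Benjamini-Hochberg adjustment over all genes tested and a threshold of 0.05. DESeq2 1.42.0 and other samples, filters, normalizations, blocks and covariates were alternatives. Intervals at 95% are unadjusted. CPM per kb used the union of exons of GENCODE M1 (mm9), and promoters came from RefSeq (GRCm38.p6). The members, lists and tests were chosen with earlier results of these data known. Named from the lists were all members, the gene with the most counts per kb of each junction list, and for Cdh1 and Dsg3 the 3 tested genes outside the members of closest pattern. From the marker lists the rule took Krt5, Krt14, Trp63 and the most counted gene of each list, and Vcl, Evpl, Plekha7, Ovol1, Krt20, Car1, Lgr5, Vil1, Krt10, Krt15, Sbsn, Col1a1, Col1a2, Col3a1, Dcn, Acta2, Des, Myh11 and genes under the filter were named after their values were seen. Cdx2, Slc26a3, Krt8, Cd3g and Pecam1 were also named after their values were seen. The libraries of 1 group differed by more than sampling noise in all 18 pairs, so none was counted as a repeat. The labels number the libraries but do not say that each came from its own mouse, so p-values measure the spread between libraries. Total counts set the counting error, and limits for 0 counts cover counting error only.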

Additional observations from a re-analysis of the deposited data

Results flagged for a closer look

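Jup in WT on water had 1 library apart from the others: replicate 2 at 399 CPM, against 290.3 to 306 CPM in the other 3. The gap took 0.857 of the group's range, above the 95% critical value for 4 samples. Chance alone marks about 1 in 20 groups in this way. The same library, WT water replicate 2, was the highest of its group for 8 of the 9 tested genes.

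The genotype difference of Cdh1 was not the same on water and after DSS at an edgeR unadjusted p below 0.05. The same held for Dsg2, Dsc2 and Dsp, and for 7.5% of all genes tested. For Cdh1 it was 0.46 on water and -0.34 after DSS on the log2 scale. The difference between these values was -0.80 ± 0.22 (SE, edgeR adjusted p = 0.64 over all genes tested). On water 4 of 4 Smad4 KO libraries lay above all WT libraries, as for 5.18% of all genes tested. After DSS 3 of 3 lay below all WT libraries, as for 11.4% of all genes tested.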

How the results depend on the processing

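Over 774 alternatives to the 45 results of single junction genes, the direction turned in 46, in none of them with a called value, and 11 passed where the reported test did not. The number of members called was 0 of 9 in all 5 comparisons. On water it was 2 with DESeq2, 2 in 1 model of all 14 libraries, 1 in 1 model of 13 libraries, 1 with the replicate block, and 0 to 1 with single libraries left out (1 without Smad4 KO water replicate 4). For DSS against water in WT it was 4 with DESeq2. No other alternative called a member. The labels do not say that replicate numbers pair the samples. Correlations of deviations between libraries of the same number were -0.11 to 0.080, except for replicate 4 of WT and Smad4 KO on water. These correlated at 0.42, and their names share the letters MP. Beyond Dsc2 on water (edgeR adjusted p = 0.046) the replicate block changed no call of a junction gene.

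Counts over all genes moved more. On water, 1 gene with edgeR became 768 with DESeq2, 1276 and 1151 in the models of 14 and 13 libraries, 55 without the filter, 473 with the replicate block, 296 with the name letters as a block, 104 without the libraries of high mitochondrial share, and 1 to 1740 with single libraries left out (1740 without Smad4 KO water replicate 4). Between genotypes after DSS, 113 became 499, 2, 8 and 345 under the first 4 of these, 57 and 42 with the blocks, 64 with the mitochondrial covariate, and 27 to 96 with single libraries left out. With DSS in WT, 0 became 1777 with DESeq2, 457 without the filter, 54 with the replicate block and up to 418 with single libraries left out. With DSS in Smad4 KO, 1 became 71 with DESeq2. The cause was not tested.

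Directions turned for reported values near 0 and for some further from it. Among the latter were Epcam, reported at 0.22 on water, 0.18 with DSS in WT and -0.30 in the interaction, and Jup. Jup was reported at 0.14 with DSS in WT and -0.15 in the interaction. On water the turned values were Jup at -0.0028 (13 libraries), -0.038 (mitochondrial covariate) and -0.19 (high shares left out), and Epcam at -0.12 (high shares left out). Between genotypes after DSS it was Dsc2 at -0.0096 (covariate). With DSS in WT they were Epcam at -0.12 (name letters), -0.23 (covariate), -0.10 (high shares left out) and -0.11 (letter D), and Jup at -0.011 (name letters), -0.064 (covariate) and -0.010 (letter D). With DSS in Smad4 KO they were Jup at 0.0037 (DESeq2 and RLE), 0.0044 (no filter), 0.0088 (13 libraries), 0.083 (replicate block), 0.037 (covariate) and 0.069 (high shares left out), Cdh17 at -0.046 (replicate block), -0.097 (covariate) and -0.056 (high shares left out), Ctnnb1 at 0.0037 (replicate block) and 0.010 (covariate), Ctnna1 at 0.029 (13 libraries) and Epcam at 0.0020 (covariate). For the interaction they were Epcam at 0.046 and Jup at 0.051 (high shares left out). With single libraries left out, Jup on water ran from -0.058 to 0.14, Cdh17 and Dsc2 between genotypes after DSS from -0.11 to 0.012 and from -0.011 to 0.12, and with DSS in Smad4 KO Cdh17 from -0.056 to 0.14, Ctnna1 from -0.079 to 0.035, Ctnnb1 from -0.059 to 0.0033, Dsg2 from -0.22 to 0.063 and Jup from -0.11 to 0.076.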
